A study of Mus musculus with 12 samples.

Results

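Brain tumours labelled IDH1WT were compared with brain tumours labelled PDGFA, 3 libraries against 3 of the 12 in the series, over the 17812 of 49671 genes that had enough counts to be tested. The members were set by tumour genotype, and all genes that passed the count filter entered the comparison. The comparison itself was chosen with earlier results of these data known. RNA came from formalin-fixed, paraffin-embedded mouse brain. The labels give 1 mouse genotype for both tumour groups, the 3 IDH1_R132H tumours and the 3 normal brains. It is N::TVA with homozygous floxed alleles that include Cdkn2a and Atrx. The labels also mark the normal brains TVA negative, which conflicts with N::TVA in that genotype, and they do not explain it. IDH1WT tumours are named for wild-type isocitrate dehydrogenase 1, and PDGFA tumours for the platelet-derived growth factor A chain. The labels do not say whether the IDH1WT tumours also received PDGFA, nor how long after infection a tumour was taken, nor the age of any animal. The series states that it asked which glioma subtype the IDH1 mutant and wild-type tumours belong to. Each sample has its own number in the labels, but nothing says that each is a separate animal, so p-values measure only the spread between these samples.

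As background, TVA is a bird cell-surface receptor through which RCAS retroviruses infect mouse cells, and N::TVA places it under the Nestin promoter, which is active in neural stem and progenitor cells. Only cells with the receptor can be infected, so a tumour section holds infected cells, their descendants and the host's vessels, glia and neurons. PDGFA binds PDGFRA, the receptor tyrosine kinase of oligodendrocyte precursors, and drives their division. Wild-type IDH1 converts isocitrate to 2-oxoglutarate in the cytosol, and only the mutant enzyme makes 2-hydroxyglutarate in quantity. In bulk tissue, fewer cells of a type and less RNA per cell cannot be told apart.

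No gene differed between the groups at the study-wide threshold. With edgeR's quasi-likelihood test, 0 of 17812 genes (0%) passed a Benjamini-Hochberg adjusted p of 0.05, and the smallest adjusted p was 0.623. At an unadjusted p under 0.05 there were 1038 genes (5.83%), 562 higher (3.16%) and 476 lower (2.67%) in IDH1WT tumours, against 890.6 if p-values were spread evenly. The lowest of 20 equal p-value bins was also the fullest, with the next 4 bins falling from 1033 to 942 genes. DESeq2 on the same counts called 12 genes (0.0817% of 14688), 7 higher (0.0477%) and 5 lower (0.034%). They were Lama2, Abca8a, mt-Te, Rgs5, Susd5, Epas1 and Il33 on the higher side and Rps3a1, Nr4a3, Gm38357, Ssbp4 and Sh3gl3 on the lower side. On simulated counts with known changes, described under processing, false calls numbered 33 with DESeq2 and 4 with edgeR. The 12 DESeq2 genes are therefore less certain than the threshold implies. The median log2 fold change of all tested genes was -0.01 and the median standard error 0.282.

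**Figure D1:**
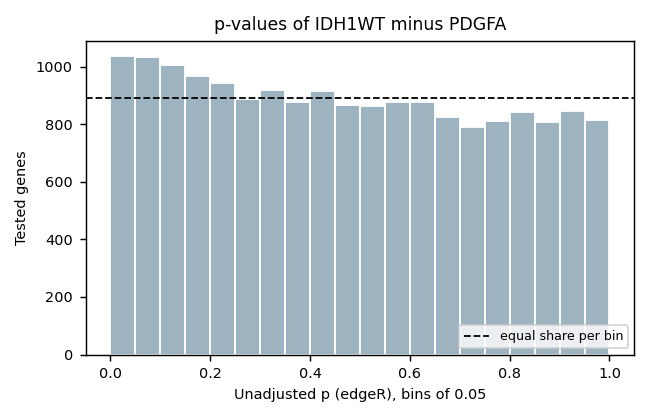
Number of tested genes (vertical axis) in each bin of unadjusted edgeR p (horizontal axis) for IDH1WT minus PDGFA tumours; the dashed line is an equal share per bin. The first bin holds 1038 genes against 890.6 at an equal share, and the counts fall gently to the right.

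The libraries of each group were unlike one another. Total counts ran from 7023188 to 14277395 in IDH1WT tumours and from 9996171 to 10520489 in PDGFA tumours. Genes with at least 1 read numbered 28641 to 35653 in IDH1WT tumours and 23628 to 28955 in PDGFA tumours. IDH1WT tumour 2 had the lowest total of the 6 libraries and the most such genes. The biological coefficient of variation was 26.4% among IDH1WT tumours, 35.6% among PDGFA tumours and 14% among normal brains. PDGFA tumour 1 stood apart. It lay at 45.5 on the first principal component, beside the normal brains at 42.3 to 45.8. PDGFA tumours 2 and 3 lay there at 2.81 and -34 and the IDH1WT tumours at -2.27, -42.5 and -20.2. On the second component PDGFA tumour 1 lay at -26.3, near PDGFA tumour 2 at -25.3 and away from the normal brains at 1.88 to 20.8. Mitochondrial genes took 20.5% of the count of PDGFA tumour 1, against 1.94% in PDGFA tumour 2 and 6.65% to 12.3% in IDH1WT tumours. Ribosomal-RNA-like loci, mitochondrial ones included, took 19.4% in PDGFA tumour 1, 2.9% in PDGFA tumour 2 and 6.91% to 12.9% in IDH1WT tumours. They took 46% in IDH1_R132H tumour 3, a library that enters the shared estimate of spread. Of the tested genes, 13985 of 17812 had the same direction with and without PDGFA tumour 1. Most list values below are therefore also given without it. PDGFA tumours 2 and 3 also differed, with a coefficient of variation of 28.8% by themselves. Genes at an unadjusted edgeR p under 0.05 numbered 980 without PDGFA tumour 1 and 2848 without PDGFA tumour 3. IDH1WT tumour 1 was the only library of the 6 with high Xist, at 12269 reads, and held 5 reads over 4 Y-linked genes, where the other 5 held 1783 to 2627.

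The genotype genes came first. Idh1 (chromosome 1, 65158616 to 65186500 on GRCm38) stood at 47.6, 56.3 and 39.1 CPM (TMM-scaled counts at equal library size) in IDH1WT tumours 1 to 3, and at 22.2, 36.2 and 46.7 in PDGFA tumours 1 to 3. The ranges overlapped, and normal brains stood at 22.5 to 27. The log2 fold change was 0.44 (SE 0.24, edgeR adjusted p = 0.853), and 0.18 without PDGFA tumour 1. Pdgfa, on chromosome 5 (138976014 to 138997370), had levels of 44.3, 78.7 and 58.9 CPM in IDH1WT tumours and at 57.1, 40.4 and 96.7 in PDGFA tumours. All 6 tumours were above the normal brains, at 28.1 to 30.5 CPM, and neither tumour group was clear of the other. The Pdgfa log2 fold change was -0.1 (SE 0.28, edgeR adjusted p = 0.972). These are counts on whole mouse genes, and viral transcripts were not counted separately. Atrx, a chromatin remodeller and one of the floxed genes, stood at 258, 212 and 297 CPM in IDH1WT tumours and at 299, 288 and 286 in PDGFA tumours. Its difference on the log2 scale was -0.19 (SE 0.16, adjusted p = 0.903 with edgeR). Cdkn2a, the p16 and p19 locus, had raw counts of 8, 3 and 5 in IDH1WT tumours and 2, 0 and 11 in PDGFA tumours, too few to test.

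Pdgfra, which encodes the receptor that PDGFA activates, was above the normal brain range of 46.9 to 49.8 CPM in each of the 6 tumours. It stood at 510, 1540.1 and 626 CPM in IDH1WT tumours and at 81.2, 247 and 814 in PDGFA tumours. PDGFA tumour 3 lay inside the IDH1WT range and PDGFA tumours 1 and 2 below it. The log2 fold change was 1.23 (SE 0.66, edgeR adjusted p = 0.853) and 0.73 without PDGFA tumour 1. Of the 6 tested PDGF ligand and receptor genes 4 were on the higher side, with Pdgfrb, the receptor of pericytes, at 0.94 (SE 0.27, edgeR adjusted p = 0.808). None of the other driver and subtype genes passed the edgeR threshold. Olig2, a transcription factor of the oligodendrocyte lineage, had a log2 fold change of 0.52 (SE 0.5) and 0.08 without PDGFA tumour 1. Egfr stood at 0.08 (SE 0.38), Nf1 at 0.11 (SE 0.16) and Trp53 at 0 (SE 0.33). Gfap, the astrocyte filament protein, stood at -0.2 (SE 0.62) and Cd44, a surface protein of mesenchymal glioma, at -0.07 (SE 0.62). Erbb3, a growth factor receptor on the proneural list, stood at 36.9, 125 and 42.1 CPM in IDH1WT tumours and at 27.6, 21.9 and 39.3 in PDGFA tumours, with a difference of 1.19 on the log2 scale (SE 0.45). Gli2, a transcription factor of Hedgehog signalling on the classical list, stood at 5.43, 5.85 and 8.19 against 1.45, 4.31 and 4.17 CPM, a difference of 0.95 (SE 0.35). It was among 3 of 18 classical genes whose groups did not overlap, where 4.32% of all tested genes were clear on this side. Erbb3 and Gli2 both had an adjusted p of 0.808 with edgeR, and without PDGFA tumour 1 the differences were 1.12 for Erbb3 and 0.60 for Gli2. Other subtype genes were lower, with Rgs12 of the classical list at -0.32 (SE 0.15) and Fosl2 of the mesenchymal list at -0.61 (SE 0.27). The list medians were 0.18 for the proneural subtype (20 genes), 0.12 for the classical (18), 0.16 for the mesenchymal (23) and -0.35 for the neural (12). Without PDGFA tumour 1 these 4 medians were 0.01, -0.05, -0.09 and 0.02.

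Genes with higher levels in IDH1WT tumours are given first. Lama2 (chromosome 10, 26980036 to 27619758), the laminin alpha chain of basement membranes, stood at 31.3, 31.5 and 32 CPM in IDH1WT tumours and at 16, 18.1 and 19.4 in PDGFA tumours. Every IDH1WT library was above every PDGFA library, and normal brains, at 24.6 to 29.7, lay nearer the IDH1WT level. The log2 fold change was 0.83 (SE 0.15, edgeR adjusted p = 0.623). Rgs5 (chromosome 1, 169655501 to 169695813), a regulator of G protein signalling in pericytes, stood at 148, 250.4 and 214 CPM in IDH1WT tumours and at 103, 94.2 and 117 in PDGFA tumours. Here the PDGFA tumours were close to normal brain, at 84.8 to 94.3 CPM. The log2 fold change was 0.96 (SE 0.18, edgeR adjusted p = 0.623). Epas1 (chromosome 17, 86753700 to 86833410), which encodes the hypoxia-inducible factor HIF-2 alpha, stood at 254, 358 and 229 CPM in IDH1WT tumours and at 110, 134 and 171 in PDGFA tumours. The normal brains, at 134 to 140 CPM, fell within the PDGFA range. Its log2 fold change was 1.02 (SE 0.21, edgeR adjusted p = 0.808).

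Further genes on the higher side were Apln, Igfbp7, Htra1, Pde5a and Msrb3. Apln, the peptide ligand of an endothelial receptor, stood at 40, 54.5 and 59.2 CPM in IDH1WT tumours and at 16.7, 18.4 and 34.3 in PDGFA tumours. Igfbp7, an insulin-like growth factor binding protein of vessels, stood at 37.4, 80.1 and 63.7 against 18.3, 18.4 and 35.9 CPM. Both genes were above the normal brain range in each IDH1WT tumour. Htra1, a secreted serine protease, stood at 89.3, 106 and 78 CPM in IDH1WT tumours and at 15.5, 35.2 and 51.1 in PDGFA tumours. Pde5a, a cyclic GMP phosphodiesterase, stood at 42.6, 40.9 and 45.2 against 29.6, 19 and 26.5 CPM, and Msrb3, a methionine sulfoxide reductase, at 16.9, 28 and 21.2 against 9.39, 10.5 and 14.6. The log2 fold changes of these genes were 1.14 for Apln, 1.31 for Igfbp7, 1.42 for Htra1, 0.78 for Pde5a and 0.93 for Msrb3, with standard errors of 0.19 to 0.35.

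Il33, an alarmin cytokine made by glia, stood at 22.4, 18.4 and 32.7 CPM in IDH1WT tumours and at 4.25, 11.8 and 10.3 in PDGFA tumours. All 3 normal brains, at 31.3 to 42.3 CPM, were above the PDGFA range, and so were the IDH1WT tumours. The log2 fold change was 1.47 (SE 0.34, edgeR adjusted p = 0.808). Abca8a, a lipid transporter, had the same order of groups, with 9.28, 9.02 and 11.5 CPM in IDH1WT tumours, 1.34, 2.98 and 2.54 in PDGFA tumours and 12.3 to 14.4 in normal brains. S100b, the calcium-binding protein of astrocytes and oligodendrocyte precursors, stood at 122, 171 and 120 CPM against 60.9, 73.8 and 69.8. Susd5 was far highest in IDH1WT tumour 2, with 10.2, 63.2 and 11.3 CPM in IDH1WT tumours and 3.02, 4.73 and 2.99 in PDGFA tumours. Its log2 fold change was 2.95 (SE 0.67), and leaving out single libraries of the 6 gave 1.58 to 3.33.

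The lower side was led by Nr4a3 (chromosome 4, 48045153 to 48086447), an orphan nuclear receptor induced within minutes of a stimulus. It stood at 19.7, 18.7 and 16 CPM in IDH1WT tumours and at 41.8, 41.2 and 30.6 in PDGFA tumours. The normal brains, at 29.1 to 43.3 CPM, shared the PDGFA range. Its log2 fold change was -1.06 (SE 0.18, edgeR adjusted p = 0.623) and -1 without PDGFA tumour 1. Ssbp4, a single-stranded DNA binding protein, stood at 39.2, 31.1 and 33 CPM in IDH1WT tumours and at 66.5, 56.5 and 49.5 in PDGFA tumours, with normal brains at 56.5 to 68.1. Hdac5, a class II histone deacetylase, stood at 90.1, 61.7 and 78.2 against 112, 118 and 114 CPM, and Celf3, a neuronal splicing factor, at 40.9, 27.7 and 34 against 65.1, 68.1 and 57.2. For these 3 genes the log2 fold changes were -0.74 (SE 0.16), -0.58 (SE 0.15) and -0.89 (SE 0.23).

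For other genes on the lower side, most PDGFA tumours were above normal brain instead. Sh3gl3, an endophilin of synaptic membranes, stood at 27.5, 26.3 and 28.4 CPM in IDH1WT tumours, 41.3, 41.9 and 46.4 in PDGFA tumours and 20.1 to 27 in normal brains. Traf3, an adaptor of tumour necrosis factor receptors, stood at 66.3, 65.6 and 64.6 CPM in IDH1WT tumours, 86.3, 101 and 88.2 in PDGFA tumours and 62.7 to 78.2 in normal brains. Pop4, a ribonuclease P subunit, stood at 4.97, 5.85 and 5.46 CPM against 13.4, 8.62 and 15.8, and PDGFA tumour 2 lay within the normal brain range of 5.38 to 9.28. The log2 fold changes were -0.65 (SE 0.15) for Sh3gl3, -0.49 (SE 0.13) for Traf3 and -1.22 (SE 0.3) for Pop4, and none passed with edgeR (adjusted p = 0.808 for each). The remaining leading genes were Glra2, a glycine receptor subunit (-1.02), Fcho1, an endocytosis factor (-0.96), Tmem191c (-0.85), Akap8l (-0.71), and Fbxl19, a CpG island binding protein (-0.59). All 24 leading genes kept their direction when any 1 of the 6 libraries was left out, which their choice by groups that do not overlap largely fixes.

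**Figure D2:**
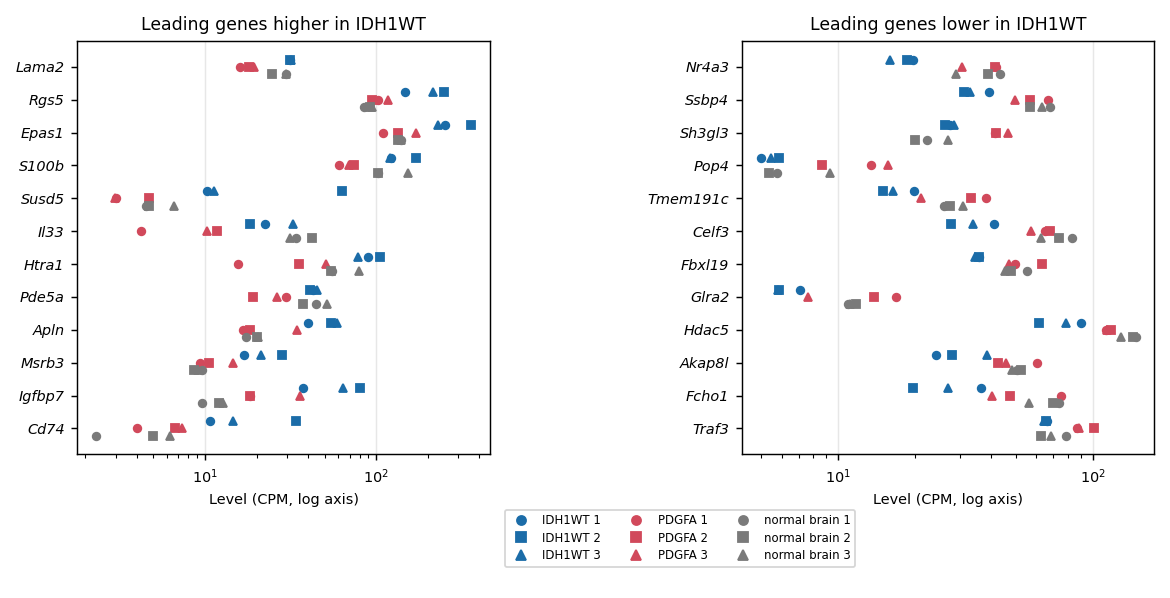
Levels of the 24 leading genes (CPM after TMM scaling, log axis) in each IDH1WT tumour, PDGFA tumour and normal brain; a colour is a group and a marker shape a library number. In every row the 3 IDH1WT markers lie on one side of the 3 PDGFA markers, while normal brains sit near the PDGFA tumours for Rgs5 and Epas1 and near the IDH1WT tumours for Il33 and Lama2.

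The gene lists were chosen with earlier results of these data known, so all list counts are descriptions and no list was tested. Pericytes are the mural cells of capillaries. Their list shares Cspg4 with the oligodendrocyte precursor list. In the list of pericyte and smooth muscle genes, all 12 tested members had a positive log2 fold change, with a median of 0.87, and 8 of the 12 had an unadjusted p under 0.05 against 3.16% of all tested genes on that side. Abcc9 and Kcnj8, the 2 parts of the pericyte potassium channel, had log2 fold changes of 1.33 and 1.23. Abcc9 stood at 23.9, 61.3 and 64.5 CPM in IDH1WT tumours and at 12, 12.8 and 34.4 in PDGFA tumours, so PDGFA tumour 3 overlapped IDH1WT tumour 1. Vtn, vitronectin, stood at 34.5, 18.9 and 31.3 CPM against 16.3, 12.8 and 19.3. The 2 groups did not overlap for 4 members, Rgs5, Acta2, Anpep and Notch3, where 4.32% of all tested genes were clear on this side. Acta2, smooth muscle actin, stood at 12.2, 9.63 and 13.6 CPM against 9.5, 6.22 and 4.98. Without PDGFA tumour 1 the median was 0.8, all 12 stayed positive and 7 had an unadjusted p under 0.05, against 2.86% of the genes then tested.

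The list level, the members' average log2 CPM after each gene was centred on the 12 libraries, was 0.29, 0.61 and 0.75 in IDH1WT tumours 1 to 3 and -0.56, -0.46 and 0.03 in PDGFA tumours 1 to 3. Each IDH1WT tumour was thus above each PDGFA tumour. PDGFA tumour 1 lay within the normal brain range of -0.6 to -0.49 and PDGFA tumour 2 just above it. Endothelial genes moved less, with 12 of 15 positive and a median of 0.25, or 0.37 without PDGFA tumour 1. Pecam1, an adhesion protein of endothelium, stood at 25.6, 26.7 and 37.2 CPM against 24.6, 14.5 and 23.1, and Emcn, endomucin, at 6.56, 8.29 and 10.8 against 4.92, 2.57 and 6.07. Cldn5, the tight junction claudin of the blood-brain barrier, stood at 24.1, 24.4 and 26.7 CPM against 18.9, 15.3 and 20. Those 3 endothelial genes did not overlap between groups, where 4.32% of all tested genes were clear on this side, and no endothelial gene was called with edgeR. The negative values were -0.4 for Tek, the angiopoietin receptor, -0.37 for Slco1a4, an organic anion transporter, and -0.06 for Vwf, von Willebrand factor.

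Over the 20 matrix genes, 15 had a positive log2 fold change with a median of 0.38, which was 0.01 without PDGFA tumour 1, and none passed the edgeR threshold. Col4a1, a collagen IV chain of basement membranes, stood at 197, 367 and 387 CPM against 125, 96.5 and 218. Its partner Col4a2 stood at 126, 196 and 225 against 111, 78 and 135, and Nid1, nidogen, at 51.4, 89.8 and 101 against 30.2, 33.3 and 58.3. For each of the 3, PDGFA tumour 3 overlapped IDH1WT tumour 1, and each tumour of both groups was above the normal brains. Col6a1, a collagen VI chain of fibrous matrix, had the opposite sign, at 18, 16.6 and 28.6 CPM against 29.2, 49.2 and 43.7. The groups did not overlap for Col6a1, and normal brains stood at 33.4 to 38. The log2 fold changes were 1.11 (SE 0.31) for Col4a1, 0.76 (SE 0.24) for Col4a2, 0.99 (SE 0.35) for Nid1 and -0.95 (SE 0.27) for Col6a1. Mmp14, a membrane protease that cuts collagen, stood at 20.6, 32.9 and 21.6 CPM against 3.35, 11.7 and 19.4.

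Hypoxia and glycolysis genes as a list stayed near 0, with a median of 0.11 over 19 genes. Egln3, an oxygen-dependent prolyl hydroxylase, stood at 13.9, 23.4 and 15.2 CPM in IDH1WT tumours and at 7.6, 11.6 and 12.1 in PDGFA tumours. The groups did not overlap for Egln3, whose difference was 0.74 on the log2 scale (SE 0.28, adjusted p = 0.808 with edgeR). Vegfa, the endothelial growth factor, stood at 66.1, 199.5 and 173 CPM against 68.4, 68.1 and 139, with IDH1WT tumour 1 below all PDGFA tumours. The 21 genes of isocitrate dehydrogenase and the TCA cycle had a median of -0.01, and 10 of them were positive. The 18 enzymes linked to 2-hydroxyglutarate or 2-oxoglutarate had a median of 0.05. Apart from Egln3, no member of those last 2 lists had an unadjusted p under 0.05.

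Of 14 tested antigen presentation genes 11 had a positive log2 fold change, with a median of 0.29, or 0.2 without PDGFA tumour 1, and none passed the edgeR threshold. The 3 with a positive sign and an unadjusted p under 0.05, where 3.16% of all tested genes lay, belong to major histocompatibility complex class II, and IDH1WT tumour 2 had the highest level of each among the 6 tumours. Cd74, the invariant chain of class II, stood at 10.7, 34 and 14.5 CPM against 4.02, 6.71 and 7.34. H2-Aa stood at 6.96, 21.6 and 9.5 against 3.69, 4.14 and 4.08, and H2-Ab1 at 3.38, 14.3 and 6.59 against 2.12, 3.98 and 3.26. The first 2 did not overlap between the groups, where 4.32% of all tested genes were clear on this side, and H2-Ab1 did. The log2 fold changes were 1.69 (SE 0.46), 1.66 (SE 0.4) and 1.34 (SE 0.48), none past the edgeR threshold (adjusted p = 0.808 for each). Nlrc5, the activator of class I genes, was lower, at 2.85, 7.07 and 6.96 CPM against 10.5, 8.95 and 9.52. Its groups did not overlap in that direction, where 4% of all tested genes were clear. Microglia and macrophage genes, 20 in all, had no member at an unadjusted p under 0.05. Their median was 0.22, or -0.29 without PDGFA tumour 1, whose list level of -2.22 lay far below the 0.62 and 0.77 of PDGFA tumours 2 and 3. Lyz2, the macrophage lysozyme, stood at 16.2, 21 and 22.1 CPM in IDH1WT tumours and at 1.68, 43.5 and 43.8 in PDGFA tumours. Only 3 of 14 T cell markers could be tested.

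Oligodendrocyte precursor genes were all on the higher side, and the size depended on PDGFA tumour 1. The 15 tested members had a median of 0.85, and 0.38 without that tumour, when 13 of 15 stayed positive. C1ql1, a secreted C1q-like protein of precursors, stood at 19.3, 57.9 and 24.3 CPM in IDH1WT tumours and at 5.03, 9.45 and 16.3 in PDGFA tumours. It was the only member whose groups did not overlap, 1 of 15 where 4.32% of all tested genes were clear on this side, with a difference of 1.7 on the log2 scale (SE 0.5, adjusted p = 0.808 with edgeR). Gpr17, a receptor of precursors about to differentiate, stood at 106, 619 and 430 CPM against 18.7, 113 and 249. Vcan, versican, stood at 144, 663 and 370 CPM against 78.7, 73.4 and 317, and Tnr, tenascin R, at 652, 1259 and 911 against 235, 375 and 856. IDH1WT tumour 2 was highest for these 4 genes, and without it the list median was 0.29. The list level was 0.18, 1.74 and 0.72 in IDH1WT tumours and -1.45, -0.31 and 1.16 in PDGFA tumours, so the groups overlapped.

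Myelin genes ran the other way. Of 15 tested members 14 were negative, the median was -0.95, and 8 had an unadjusted p under 0.05, against 2.67% of all tested genes on that side. Mobp, a structural protein of myelin, stood at 517, 250.1 and 523 CPM in IDH1WT tumours and at 1695, 823 and 541 in PDGFA tumours. The groups did not overlap for Mobp, and normal brains stood at 398 to 404. Mbp, myelin basic protein, stood at 1789.9, 997 and 1554 CPM against 5923, 2877 and 1395. PDGFA tumour 1 was highest and PDGFA tumour 3 within the IDH1WT range for Mbp. Mal, a membrane protein of myelin, stood at 145, 53.5 and 111 CPM against 248, 253 and 124. Without PDGFA tumour 1 the median was -0.23 and 4 members were positive. On the lower side 3 then had an unadjusted p under 0.05, against 2.35% of the genes then tested. Markers of striatal neurons, which mark a brain region and not a tumour, were lower too, with a median of -0.73 over 15 genes that became -0.01 without PDGFA tumour 1. Their part in the myelin and early gene values was not tested.

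**Figure D3:**
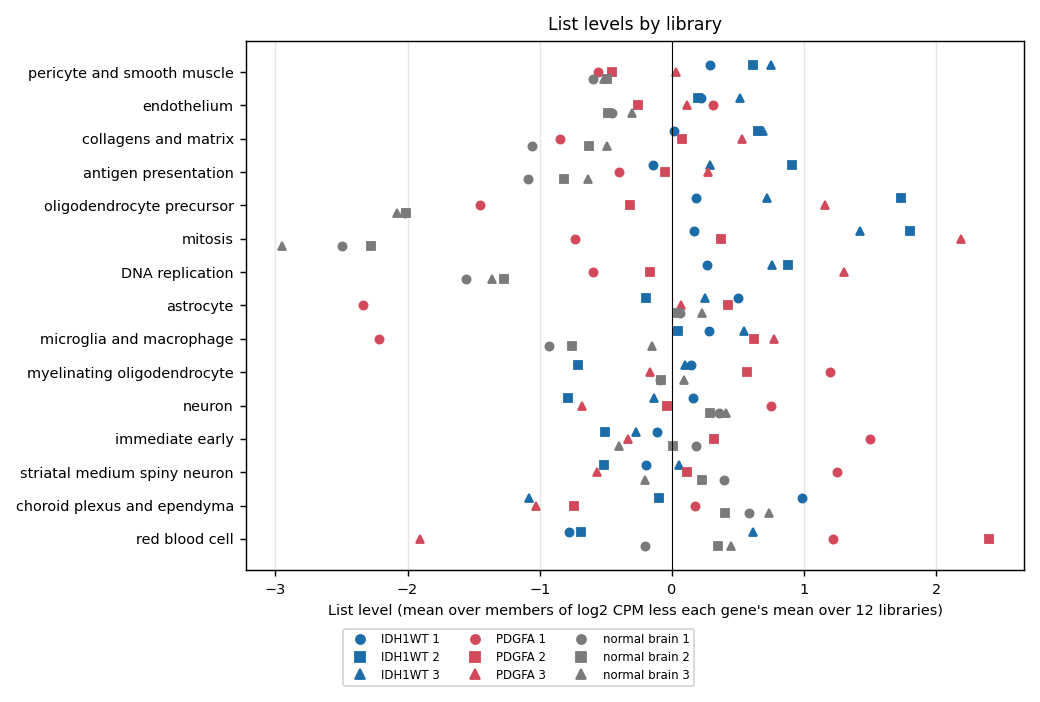
List level in each library (members' average log2 CPM, each gene centred on the 12 libraries, horizontal axis) for 15 gene lists, with colours for IDH1WT tumours, PDGFA tumours and normal brains and marker shapes for library numbers. PDGFA tumour 1 lies far to the left for astrocyte (-2.34) and microglia (-2.22) genes, and only the pericyte list has its 3 IDH1WT markers to the right of its 3 PDGFA markers.

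Division genes did not separate the groups. Mki67, the proliferation antigen, stood at 51.8, 182 and 173 CPM in IDH1WT tumours and at 65.4, 67.9 and 338 in PDGFA tumours, against 0.808 to 3.29 in normal brains. All 6 tumours, PDGFA tumour 1 among them, were far above normal brain, and the 2 tumour groups overlapped. The log2 fold change was -0.21 (SE 0.63, edgeR adjusted p = 0.974). Ccna2, cyclin A2, stood at 16, 59.3 and 42.7 CPM against 6.04, 19.1 and 63.4. The mitosis list had a median of 0.19, which was -0.29 without PDGFA tumour 1 and 1.36 without PDGFA tumour 3. Replication genes had a median of 0.2, or -0.13 without PDGFA tumour 1. Astrocyte genes had a median of 0.38 that was -0.06 without PDGFA tumour 1, and neuron genes one of -0.35 that was 0.08. Gpr37l1, an astrocyte receptor, stood at 194, 205 and 122 CPM against 9.06, 114 and 119, and its log2 fold change of 1.1 (SE 0.6) was 0.56 without PDGFA tumour 1.

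Immediate early genes, the transcription factors and regulators that cells induce first after a stimulus, were all on the lower side. The 18 tested members had a median of -0.94, all 18 were negative, and 10 had an unadjusted p under 0.05 where 2.67% of all tested genes had one on that side. Without PDGFA tumour 1 the median was -0.3, 15 of 18 were negative and 3 had an unadjusted p under 0.05, against 2.35% of the genes then tested. Fos stood at 28, 19.8 and 22.4 CPM in IDH1WT tumours and at 120.3, 35.1 and 34.3 in PDGFA tumours. The groups did not overlap for Fos, Nr4a1 and Nr4a3, where 4% of all tested genes were clear on this side. Egr1, an early zinc finger factor, stood at 86.9, 91.7 and 63 CPM against 216, 181 and 85.7, and Nr4a2 at 17.4, 10.9 and 11.8 against 39.5, 27.1 and 16.2. Npas4, a factor that neurons induce with activity, stood at 221.7 CPM in PDGFA tumour 1 and at 3.41 to 10.2 in the other 5 tumours. Its log2 fold change was -3.71 with that tumour and -0.22 without it, whereas Nr4a3 gave -1.06 and -1.

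Many early genes carry binding sites for CREB, the factor activated by cyclic AMP, and the upstream sequences of the 3 genes whose groups were clear are shown for that reason. They come from RefSeq on GRCm38.p6, on the plus strand, ending at the RefSeq start or at the first annotated exon base. Capitals mark the CRE half-site, TGACG on either strand. The Fos stretch is chr12:85473640-85473889, the Nr4a1 stretch chr15:101266596-101266845 and the Nr4a3 stretch chr4:48045055-48045152.
Fos: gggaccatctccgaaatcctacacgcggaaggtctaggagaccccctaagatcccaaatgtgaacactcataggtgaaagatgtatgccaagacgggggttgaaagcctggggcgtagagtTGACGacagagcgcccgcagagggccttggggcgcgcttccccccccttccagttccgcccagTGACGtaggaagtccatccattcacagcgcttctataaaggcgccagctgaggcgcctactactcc
Nr4a1: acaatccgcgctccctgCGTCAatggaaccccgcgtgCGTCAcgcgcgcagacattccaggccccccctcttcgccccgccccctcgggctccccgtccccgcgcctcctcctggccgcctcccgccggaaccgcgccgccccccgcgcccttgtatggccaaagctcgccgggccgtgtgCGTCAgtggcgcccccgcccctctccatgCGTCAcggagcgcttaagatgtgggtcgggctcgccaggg
Nr4a3: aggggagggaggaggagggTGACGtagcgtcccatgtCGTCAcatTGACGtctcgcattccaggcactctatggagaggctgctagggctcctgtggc
They hold 2, 4 and 3 half-sites. Over the full windows of 250 bases before the start, 14 of the 18 early genes had an entry in the table, with 18 windows in all, 5 of them overlapping or neighbouring windows of Egr2. A half-site was in 13 of the 18 windows, against 17.77% of all 32851 windows. The full palindrome TGACGTCA, which contains a half-site on each strand, was in 2 of the 18 windows (Btg2 and Dusp1) and in 1.546% of all windows. The CArG box of serum response factor was in 4 of the 18, each of Egr2, and in 1.467% of all. Such a match is only a match of letters.

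**Figure D4:**
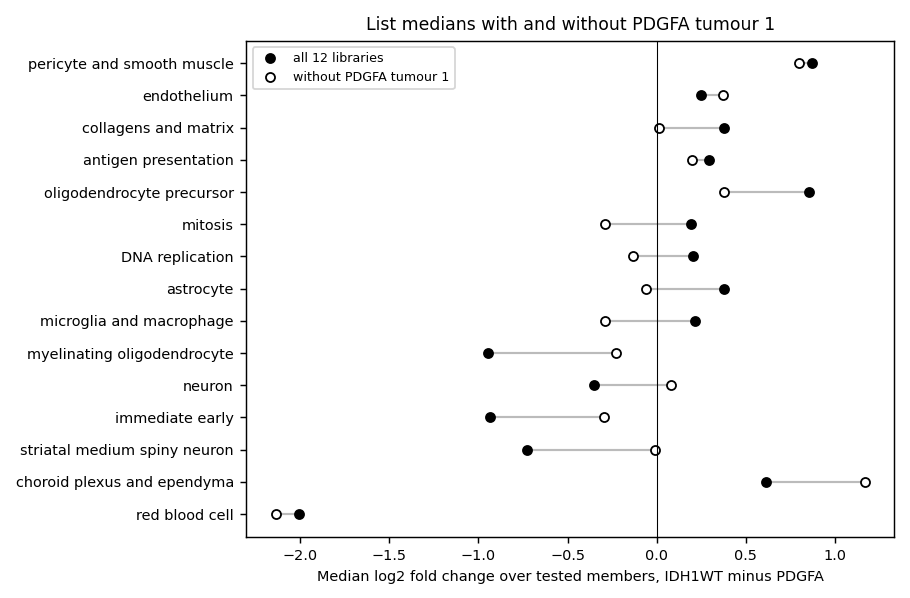
Median log2 fold change over the tested members of 15 lists (horizontal axis, IDH1WT minus PDGFA), filled circles with all 12 libraries and open circles without PDGFA tumour 1. The pericyte median stays at 0.87 and 0.8, while the immediate early median goes from -0.94 to -0.3 and the myelin median from -0.95 to -0.23.

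Haemoglobin genes gave the lowest list median, -2.01 over 7 red blood cell genes, and they followed single PDGFA tumours. Hbb-bs, an adult beta globin, stood at 59.7, 72.2 and 120 CPM in IDH1WT tumours and at 235, 767 and 17.4 in PDGFA tumours. PDGFA tumour 2 was the highest library and PDGFA tumour 3 the lowest of the 6. Without PDGFA tumour 2 the list median was -0.69. Near-identical globin copies can share reads, so single copies are uncertain.

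A gene and its copy had opposite differences. Rps3a1 (chromosome 3, 86137940 to 86142702) encodes a protein of the small ribosomal subunit, and Rps3a3 (chromosome 13, 108670603 to 108671397) is annotated as a processed pseudogene, a copy without introns. Over the 795 bases of the copy their transcripts differ at 9 positions, an identity of 98.87%. A stretch of 60 coding bases, from base 334 of the Rps3a1 transcript and base 201 of the Rps3a3 transcript counted from the 5′ end, shows how little separates them, with the mismatched bases in capitals.
Rps3a1: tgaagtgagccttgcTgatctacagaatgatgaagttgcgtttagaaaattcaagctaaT
Rps3a3: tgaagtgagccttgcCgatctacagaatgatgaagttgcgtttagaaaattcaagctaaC
Rps3a1 stood at 0.663, 0.61 and 0.941 CPM in IDH1WT tumours and at 4.14, 13.6 and 12.1 in PDGFA tumours. Rps3a3 was the mirror image, at 31.2, 35.4 and 21.7 CPM against 7.83, 0.249 and 0.453. The log2 fold changes were -3.73 (SE 0.63, edgeR adjusted p = 0.623) for Rps3a1 and 3.45 (SE 0.85, edgeR adjusted p = 0.808) for Rps3a3.

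Across all 12 libraries the pair fell at 3 places. The 3 IDH1WT tumours and IDH1_R132H tumour 3 had 3 to 10 reads on Rps3a1 and 161 to 471 on Rps3a3. PDGFA tumours 2 and 3 had 164 and 133 reads on Rps3a1 and 3 and 5 on Rps3a3. The other 6 libraries, with the normal brains and PDGFA tumour 1 among them, lay between, with 36 to 76 reads on Rps3a1 and 70 to 208 on Rps3a3. Summed over Rps3a1, Rps3a2 and Rps3a3 the log2 fold change was 1.24 (SE 0.303, edgeR adjusted p = 0.81), so the direction for Rps3a1 alone was the opposite of the sum. Without PDGFA tumour 1 edgeR called 1 of 18816 genes (0.00531%), Rps3a3, with a log2 fold change of 6.34 and an adjusted p of 0.0113. Gpatch4, on the same chromosome as Rps3a1 (88043108 to 88055993), stood at 10.8, 7.56 and 8.94 CPM in IDH1WT tumours and at 5.59, 0.746 and 0.544 in PDGFA tumours, and PDGFA tumours 2 and 3 were again apart from PDGFA tumour 1. Reads of such near-identical genes cannot be assigned with certainty.

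**Figure D5:**
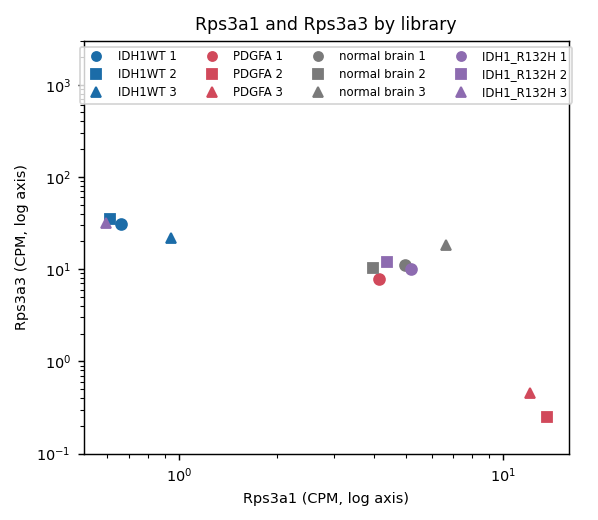
Rps3a1 against Rps3a3 in each of the 12 libraries (CPM after TMM scaling, both axes log). The IDH1WT tumours and IDH1_R132H tumour 3 lie at the upper left, PDGFA tumours 2 and 3 at the lower right, and the other 6 libraries between them.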

How the data were processed

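RNA-seq counts of 12 libraries were used, 6 of them in the contrast. The table the authors deposited holds raw counts of reads for 49671 Ensembl genes. The submitters' processing notes name STAR 2.5.2b, Subread, featureCounts 1.5.1, DESeq2 1.16.1 and GRCm38. No source used here gives the annotation, the strand setting or the handling of multi-mapping reads, so antisense and near-identical genes are uncertain. The deposited log2 (rlog) table served only as an alternative. GENCODE M21 named 49412 genes.

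Filtering used filterByExpr with a minimum count of 10 and a minimum total of 15, and scaling used TMM. edgeR 4.0.16 (R 4.3.3) fitted a robust quasi-likelihood model with 1 coefficient per group to all libraries (8 residual degrees of freedom), with Benjamini-Hochberg adjustment over 17812 genes. DESeq2 1.42.0, which left 3124 adjusted p-values undefined, and limma 3.58.1 gave alternatives. The procedure was tested on simulated data in which all groups had the same spread per gene. Of 67 genes changed 2-fold there, edgeR recovered 15 and DESeq2 23. At 4-fold, edgeR recovered 57 of 67 and DESeq2 59. False calls numbered 4 with edgeR and 33 with DESeq2.

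Replicate numbers follow record order and pair nothing. The members, the 37 gene lists and the naming rule were chosen with earlier results of these data known. With few called genes, the rule names the 12 genes of smallest p each way with separated groups and mean log2 CPM of 3 or more, then 4 per list by smallest p, then the genotype and driver genes. Rps3a1, Rps3a3, Gpatch4, Acta2, Anpep, Mmp14, Nlrc5, Cldn5, Kcnj8, Erbb3, Gli2, Rgs12, Fosl2, Tek, Slco1a4, Vwf, Btg2, Dusp1, Npas4, the genes called by DESeq2 and those of the closing section were chosen after their values were seen. One floxed allele and a gene of the myelin list are not reported here.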

Additional observations from a re-analysis of the deposited data

How the results depend on the processing

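The count of called genes was 0 with RLE size factors, a minimum count of 50, the 6 libraries alone, voom with quality weights, rlog values, or without ribosomal-RNA-like and mitochondrial genes. It was 12 (7 higher, 5 lower) with DESeq2, 261 (180 higher, 81 lower) with no count filter, 3 (2 higher, 1 lower) without PDGFA tumour 1 and IDH1_R132H tumour 3, and 1 (higher) without IDH1WT tumour 1 and PDGFA tumour 1. Leaving out single libraries gave 0 to 1 called, 0 to 1 higher and 0 lower. The unfiltered fit, on 42503 genes, moved the median of all genes by 0.136 on the log2 scale and had infinite prior degrees of freedom against 4.502. Genes at unadjusted p under 0.05 numbered 3643 there, 502 with the 6 libraries alone, 2848 without PDGFA tumour 3, 1801 without IDH1WT tumour 1 and 455 without IDH1WT tumour 2.

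Among the genes named with a fold change, Pdgfa, Egfr, Gfap, Cd44, Trp53, Mki67, Ccna2, Lyz2, Tek, Vwf and Rps3a1 (1.24 when summed with its copies) changed sign under some setting. Under voom weights Pdgfa was 0.23, Cd44 0.096, Trp53 0.38, Mki67 0.55 and Vwf 0.13. On rlog values Gfap was 0.12, Cd44 0.16, Trp53 0.021, Mki67 0.0089 and Lyz2 0.0045. Trp53 was 0.021 at a minimum count of 50, 0.013 with the 6 libraries and 0.010 without IDH1WT tumour 1 and PDGFA tumour 1, where Egfr was -0.37 and Vwf 0.090. Without PDGFA tumour 1 and IDH1_R132H tumour 3, Egfr was -0.33, Ccna2 -0.068, Tek 0.022 and Vwf 0.023. Leaving out single libraries gave -0.36 to 0.30 for Pdgfa, -0.34 to 0.38 for Egfr, -0.71 to 0.29 for Gfap, -0.60 to 0.34 for Cd44, -0.24 to 0.43 for Trp53, -0.60 to 1.005 for Mki67, -0.093 to 1.60 for Ccna2, -0.64 to 0.014 for Tek and -0.24 to 0.026 for Vwf. The cause was not tested. No paired analysis was possible because the labels give no replicate numbers, and those used here follow record order.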

Other observations

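For some genes a single library stood far above the rest. Of the tested genes 40 had, in 1 of the 6 tumours, at least 5 CPM and at least 4 times the next library, and all 40 had a fitted difference of at least 2-fold without passing the threshold. IDH1WT tumour 2 led 28 of them, PDGFA tumours 1 and 3 led 4 each, IDH1WT tumour 3 led 2, and IDH1WT tumour 1 and PDGFA tumour 2 led 1 each. Hoxa5 and Hoxa3, patterning genes of the hindbrain and spinal cord, stood at 13.4 and 11.2 CPM in IDH1WT tumour 2 and below 1 CPM in the other 5 tumours. Gh and Prl, the pituitary hormones growth hormone and prolactin, had 22.6 and 3.41 CPM in that library and at most 0.0906 CPM in the other 5. Pmch, the melanin-concentrating hormone of the hypothalamus, stood at 14.3 CPM in PDGFA tumour 2 and 3.47 in PDGFA tumour 1, against 0 to 0.199 in the other 4, and at 0.525 to 12.1 in normal brains. Hcrt, the hypothalamic neuropeptide orexin, was read at 2.46 and 1.74 CPM in PDGFA tumours 1 and 2 and at 0 in the other 4.

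A group of unnamed gene models moved together. Gm10800 stood at 2219, 10910 and 1728 CPM in IDH1WT tumours and at 19, 63.6 and 983.9 in PDGFA tumours, and Gm10801 at 1223, 6490 and 936 against 6.15, 13 and 556.7. The groups did not overlap for either gene. Normal brains ranged from 352 to 2990 CPM for Gm10800. With edgeR the adjusted p was 0.808 and 0.835.

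Xist stood at 813 CPM in IDH1WT tumour 1 and at 0.906 to 26.9 CPM in the other 5 tumours, and IDH1_R132H tumour 2 was the only other library of the 12 with high Xist (19062 reads) and 1 read over 4 Y-linked genes.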
